A study of Mus musculus with 8 samples.

Results

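Genes of glucose metabolism were read in the livers of mice in which the kinase IKK2 is held active, together with the enzymes, transporters and insulin signalling genes that differ between hepatocytes and other cells. The members were chosen by function, as 36 genes of gluconeogenesis, glycogen, glycolysis, glucose transport, the pentose phosphate pathway and insulin signalling. Each was read through the brightest probe set annotated to that gene alone, by the mean of all 8 arrays. Of the 36 genes, 34 were measured, among 19938 genes tested in all. They fall into 13 hepatocyte enzymes and transporters, 4 insulin signalling genes, 1 pentose phosphate gene and 16 isoforms used outside hepatocytes. The 16 are called the leukocyte set here, although hepatocytes and other cells express some of them, such as Ldha, Pgk1 and Slc16a1. From which cells Pfkm and Pdk1, also in this set, were read was not tested. Pfkfb1, the liver enzyme that sets the level of the glycolysis activator fructose 2,6-bisphosphate, and G6pdx, the first enzyme of the pentose phosphate pathway, had no such probe set and were not analysed here.

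The transgenic group consists of 4 mice carrying a constitutively active IKK2 transgene, and the control group of 4 wild type mice. All 8 mice were 4 weeks old, and both groups shared a C57BL/6 background, reached from a mix of C57BL/6 and NMRI in 4 or more backcrosses. Total RNA of the whole liver of each mouse was hybridised to an Affymetrix whole-transcript array of its own, which gives 1 log2 expression value per probe set. The transgene stands behind the LAP promoter, which is active in hepatocytes, so the kinase is made in hepatocytes while the RNA comes from every cell of the organ. The number of founder lines and the feeding state were not stated in the sources used. The labels call the 4 livers of a group biological replicates, and p-values rest on the spread between these 8 livers. Ikbkb, the gene of IKK2, averaged 8.71 ± 0.39 in transgenic and 7.71 ± 0.19 in control livers (SD, n = 4 each), or 1.00 higher on the log2 scale (SE 0.18, limma adjusted p = 0.0185), with no overlap of the groups. The adjusted p lay between 0.00964 and 0.0729 over all alternative settings, and the call was lost in 6 of 19: with limma's treat (0.0729), without transgenic replicate 1 (0.0688) and without control replicates 1 to 4 (0.0546, 0.0691, 0.0565 and 0.0566). Whether this probe set also reads the transgene was not tested.

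Hepatocytes release glucose between meals. They make it from lactate and amino acids through pyruvate carboxylase, phosphoenolpyruvate carboxykinase, fructose bisphosphatase and glucose-6-phosphatase, and they take it from glycogen through glycogen phosphorylase. After a meal insulin turns these steps down and hepatocytes store glucose, using isoforms with a low affinity for sugar or with liver-specific control, such as the transporter GLUT2 and the liver pyruvate kinase. Macrophages and other leukocytes do not release glucose. They burn it, the more so when activated, through other isoforms of the same steps: the transporters GLUT1, GLUT3 and GLUT6, the hexokinases 1 to 3, platelet-type phosphofructokinase, aldolase A and the M form of pyruvate kinase.

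Of the 34 members, 1 was higher and 1 lower in transgenic liver by limma's test at an adjusted p under 0.05, against 6.34% of all genes called, 4.67% higher and 1.67% lower. The share of members called, 5.88%, was close to that of all genes. Hexokinase 2 rose and the pyruvate dehydrogenase kinase Pdk1 fell. At an unadjusted p under 0.05, 33.6% of all genes passed, 15.3% higher and 18.3% lower. The 13 hepatocyte genes gave 0 calls, with 3 lower and 0 higher at that unadjusted level, the 3 lower being near the share of all genes. In the 16 genes of the leukocyte set, 7 were higher and 2 lower at the unadjusted level. The median log2 fold change of the leukocyte set was 0.35, beside -0.20 in the hepatocyte set and -0.07 over all genes tested. Without transgenic replicate 2 these medians were 0.22, -0.11 and -0.06. Transgenic and control livers did not overlap for 7 of the 16 on the higher side (Slc2a1, Slc2a3, Hk1, Hk2, Pfkp, Aldoa and Pkm) and for 1 on the lower side (Pdk1). Among all genes 22.4% did not overlap, 11.2% on either side. The counts move with single arrays. In the leukocyte set 0 genes were called higher without transgenic replicate 1 or without control replicates 1, 2 or 4, against 3, 2 and 5 without transgenic replicates 2, 3 and 4. Called lower were 0 without transgenic replicate 1 or without any 1 control, and 2 without transgenic replicate 4.

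**Figure D1:**
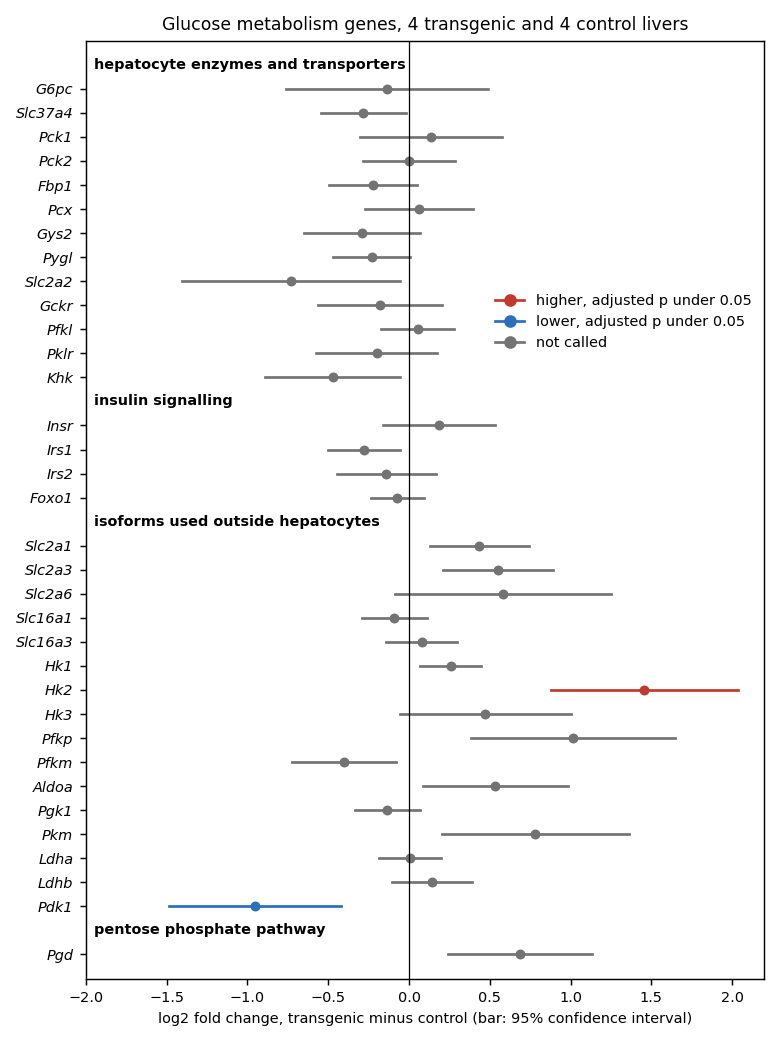
Log2 fold change of each of the 34 measured members, transgenic minus control (4 livers each), with limma's 95% confidence interval, grouped by function. Only the intervals of Hk2 (1.46) and Pdk1 (-0.95) belong to called genes. In the leukocyte set the groups do not overlap for 7 of the 16 genes on the higher side and for 1 (Pdk1) on the lower side. Among all genes the share is 11.2% on each side.

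Promoter sequences are given for 4 members: the 2 that passed the test (Hk2 and Pdk1), the other member of the leukocyte set with the largest positive difference (Pfkp), and the hepatocyte member with the largest difference in either direction (Slc2a2). Each is the 250 bases before the first start that RefSeq lists on GRCm38.p6, 5′ to 3′ on the gene's own strand. Hk2 lies at chr6:82774455-82774704 on the minus strand, Pfkp at chr13:6648772-6649021 on the minus strand, Pdk1 at chr2:71872974-71873223 on the plus strand and Slc2a2 at chr3:28697653-28697902 on the plus strand. Capitals mark matches, on either strand, to any of the motifs named after the sequences.
Hk2: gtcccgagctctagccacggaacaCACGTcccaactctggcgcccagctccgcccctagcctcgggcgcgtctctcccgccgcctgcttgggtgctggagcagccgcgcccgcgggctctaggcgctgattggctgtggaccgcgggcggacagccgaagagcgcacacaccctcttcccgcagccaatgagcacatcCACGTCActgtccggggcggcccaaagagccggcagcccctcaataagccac
Pfkp: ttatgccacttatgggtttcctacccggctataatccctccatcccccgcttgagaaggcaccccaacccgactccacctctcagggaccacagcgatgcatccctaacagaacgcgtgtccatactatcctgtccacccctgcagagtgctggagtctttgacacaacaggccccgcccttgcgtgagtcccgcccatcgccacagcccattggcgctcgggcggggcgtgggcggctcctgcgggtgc
Pdk1: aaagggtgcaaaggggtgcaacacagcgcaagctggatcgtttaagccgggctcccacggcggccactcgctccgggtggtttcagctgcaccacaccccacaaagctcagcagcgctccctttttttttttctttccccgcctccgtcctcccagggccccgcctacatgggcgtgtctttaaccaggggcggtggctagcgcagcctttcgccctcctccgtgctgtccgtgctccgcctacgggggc
Slc2a2: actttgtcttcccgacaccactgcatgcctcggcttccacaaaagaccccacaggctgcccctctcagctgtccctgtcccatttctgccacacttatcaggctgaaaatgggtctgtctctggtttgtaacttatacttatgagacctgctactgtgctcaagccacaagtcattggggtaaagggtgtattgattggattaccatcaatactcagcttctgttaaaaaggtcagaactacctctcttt
The motifs were the kappaB consensus of NF-kB, the cAMP response core CGTCA, the E-box CACGTG, the forkhead site GTAAACA and the hypoxia core ACGTG, which is part of the E-box. They were searched in windows of 250 bases before to 50 after the start. Hk2 held the hypoxia core on the minus strand with its first base at -226 and at -52 from the start and the cAMP response core at -50, which overlaps the nearer hypoxia core. The windows of Pfkp, Pdk1 and Slc2a2 held 0 matches. Of the 34 measured members 31 had a promoter in the RefSeq table. The kappaB consensus stood in 4 of the 31 (Slc37a4, Hk1, Pgk1 and Irs1), beside 9.18% of the promoters of 15614 genes tested. The hypoxia core stood in 8 of the 15 promoters of the leukocyte set and in 3 of the 12 of the hepatocyte set, beside 21.7% of all. The 8 were Slc2a1, Slc16a1, Slc16a3, Hk2, Hk3, Pfkm, Pgk1 and Ldha, of which Hk2 alone was called. The E-box stood in 3 of the 15 (Slc16a1, Pfkm and Ldha, all among those 8) and 2 of the 12, beside 8.38%. The cAMP response core stood in 4 of the 15 and 4 of the 12, beside 25.4%. The forkhead site stood in 0 of the 31, beside 3.02%. A match is a description of these letters and says nothing of what binds there.

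Marker genes of cell types that a whole liver can hold were read in the same livers. Of 16 macrophage and monocyte markers 15 rose and 0 fell, and the mean log2 level of the list was 8.79 to 10.03 in transgenic livers, against 6.87 to 7.25 in control livers. Cybb, a subunit of the phagocyte oxidase, rose by 4.04 and the invariant chain Cd74 by 4.16. Of 11 T, B and NK cell markers 2 rose (Cd3g by 1.53 and Nkg7 by 1.52), with list means of 4.66 to 5.34 in transgenic and 4.32 to 4.49 in control livers. Of 10 neutrophil markers 0 passed, with list means of 4.14 to 4.74 in transgenic and 4.08 to 4.33 in control livers. Camp, the brightest, had a log2 fold change of -0.25, while 6 of the 10 were positive and the list's median was 0.17. Of 8 hepatocyte markers 0 passed, with list means of 12.94 to 13.14 in transgenic and 13.09 to 13.17 in control livers. Alb, the albumin gene and the brightest, had a log2 fold change of 0.01, while 5 of the 8 were negative, 3 were positive and the list's median was -0.09. Of 7 erythroid markers 2 fell, Car1 by 1.62 and Gata1 (named after its values were seen) by 0.40, while Alas2, the brightest, had a log2 fold change of 0.16. In the erythroid list 4 of the 7 were positive and 3 negative, and the median was 0.10. Red cell precursors use Hk1. The 8 endothelial, 5 bile duct and 6 skeletal muscle markers gave 0 calls, and of 8 stellate cell markers Dcn rose by 0.55 and Col1a1 by 0.71. In whole liver, fewer cells of a type and less RNA per cell cannot be told apart, and the part of leukocytes in the values below was not tested.

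Transgenic replicate 2 stood apart from the other transgenic livers. Over all genes its median absolute deviation from the rest of its group was 0.213, against 0.109 to 0.150 in the other 7 arrays. It was the highest of the 4 transgenic livers for 15 of the 16 macrophage and monocyte markers. It was the highest for 9 of the 16 genes of the leukocyte set and the lowest for 9 of the 13 hepatocyte genes, beside 31.0% and 38.6% of all genes. In the leukocyte set it was the lowest for 3 genes, Pfkm, Pdk1 and Slc16a1. Many values below are also given without it. Without it, 3 members rose (Hk2, Pfkp and Pkm) and 1 fell (Pdk1), all in the leukocyte set, against 6.20% of all genes called, 4.90% higher and 1.30% lower.

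**Figure D2:**
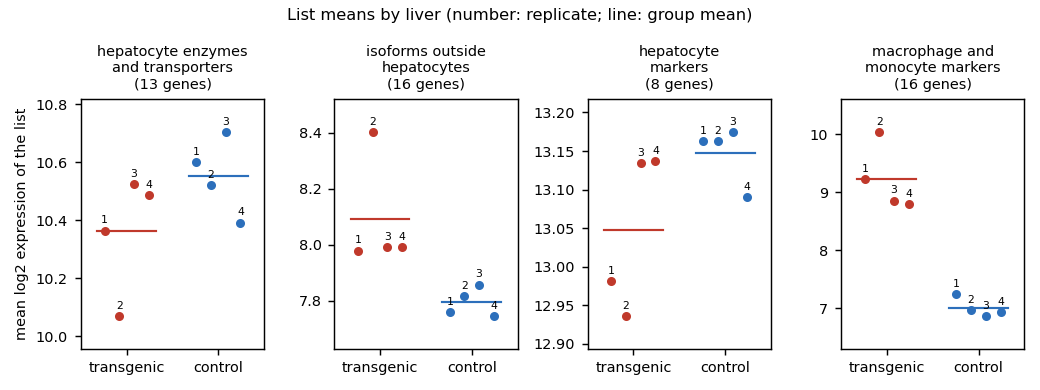
Mean log2 expression of 4 gene lists in each liver, transgenic left and control right, with the replicate number beside each point and a line at the group mean; the vertical scales differ. Transgenic replicate 2 has the lowest mean of the hepatocyte set (10.07) and the highest of the leukocyte set (8.40) and of the macrophage and monocyte markers (10.03).

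Transport is the first step. Slc2a2 encodes GLUT2, the transporter that carries glucose in and out of hepatocytes. It read 10.72, 9.68, 11.01 and 11.35 in transgenic replicates 1 to 4, against 11.61, 11.11, 11.49 and 11.47 in the controls. Transgenic replicate 2 was the lowest of all 8, and replicate 4 lay inside the control range. The log2 fold change was -0.73 (SE 0.30, 95% confidence interval -1.40 to -0.05) and did not pass (adjusted p = 0.129). Without transgenic replicate 2 it was -0.39 (adjusted p = 0.173).

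The 3 sugar transporters of other cells averaged higher in transgenic livers, without passing the test. Slc2a1 encodes GLUT1, a transporter of endothelium, activated leukocytes and other cells, and read 8.13, 8.43, 7.92 and 7.80 in transgenic livers against 7.75, 7.72, 7.57 and 7.49 in controls. Every transgenic liver lay above every control, and the log2 fold change was 0.44 (SE 0.14, adjusted p = 0.0752), or 0.31 without transgenic replicate 2. It passed without transgenic replicate 4 (0.0386). Slc2a3, which encodes the high-affinity GLUT3 of neurons and leukocytes, read 5.62, 5.98, 5.32 and 5.34 in transgenic livers against 5.22, 5.06, 4.92 and 4.85 in controls. Its log2 fold change was 0.55 (SE 0.15, adjusted p = 0.059), again with no overlap, and 0.41 without transgenic replicate 2. It passed without transgenic replicate 3 (0.0439) or 4 (0.0391) and after quantile normalization (0.0452).
For Slc2a6, which encodes the lysosomal GLUT6 of macrophages, the transgenic livers read 6.32, 7.69, 6.08 and 6.57 and the controls 5.84, 6.33, 6.16 and 6.01. Only replicates 2 and 4 lay above all controls, and the log2 fold change of 0.58 (adjusted p = 0.196) was 0.24 without transgenic replicate 2. The lactate carriers showed no such pattern. Slc16a1, the carrier MCT1 that hepatocytes use too, averaged 9.59 ± 0.06 in transgenic and 9.68 ± 0.14 in control livers (SD, n = 4 each), and Slc16a3, the MCT4 of glycolytic cells, averaged 5.83 ± 0.11 in transgenic and 5.75 ± 0.14 in control livers.

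Hexokinases trap glucose in the cell as glucose 6-phosphate. Hk2, the inducible hexokinase of muscle, fat and activated or proliferating cells, was the one member that rose. It read 7.16, 8.15, 6.88 and 7.07 in transgenic replicates 1 to 4, against 5.47, 5.90, 6.17 and 5.90 in the controls. Every transgenic liver lay above every control, replicate 2 by the most. The level was 2.74-fold higher, or 1.46 on the log2 scale (SE 0.26, 95% confidence interval 0.88 to 2.04, adjusted p = 0.018), and 1.18 without transgenic replicate 2 (adjusted p = 0.00163). The call was lost without transgenic replicate 1 (0.0587) and without control replicates 1, 2 or 4 (0.058, 0.0672 and 0.0566).

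Hk3, the hexokinase of myeloid cells, read 5.55, 6.77, 6.12 and 5.57 in transgenic livers and 5.52, 5.49, 5.62 and 5.49 in controls. Replicates 2 and 3 lay above all controls while replicates 1 and 4 overlapped them, and the log2 fold change of 0.47 did not pass (adjusted p = 0.188), nor did the 0.22 without transgenic replicate 2. Hk1, the hexokinase of most cells outside the liver, is read with less certainty. Its brightest probe set (10414661) is annotated to a single accession that also stands in 16 probe sets shared between Hk1 and the ribosomal protein gene Rpl17. The mean levels of those 16 lay between 10.17 and 12.44 and their log2 fold changes between 0.13 and 0.25. On 10414661, Hk1 averaged 12.17 ± 0.06 in transgenic and 11.91 ± 0.12 in control livers (SD, n = 4 each; log2 fold change 0.26, adjusted p = 0.0823). The probe set that lists the RefSeq mRNAs of Hk1 (10369541) read 5.68, 5.85, 5.53 and 5.60 in transgenic livers, against 5.42, 5.35, 5.33 and 5.44 in controls, or 0.28 higher on the log2 scale (adjusted p = 0.0793). The groups did not overlap on either. The counts, medians and means of the leukocyte set use 10414661, and which gene it reads was not tested.
Gckr, a regulatory protein of sugar phosphorylation in hepatocytes, read 10.52, 9.77, 10.57 and 10.58 in transgenic livers, against 10.49, 10.54, 10.60 and 10.53 in controls. Only transgenic replicate 2 lay outside the control range. The log2 fold change was -0.18 (adjusted p = 0.457), and it was 0.02 without that liver.

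Phosphofructokinase commits the sugar to glycolysis, and its 3 isoform genes differed in direction. Pfkp, the platelet type found in blood and many dividing cells, read 6.29, 7.14, 5.94 and 5.53 in transgenic livers, against 5.40, 5.12, 5.23 and 5.09 in controls. No transgenic liver fell within the control range. The log2 fold change of 1.02 (2.02-fold, SE 0.28) missed the threshold (adjusted p = 0.0593), while the value without transgenic replicate 2, 0.71, passed it (adjusted p = 0.0325). It also passed without transgenic replicate 4 (0.0188), after quantile normalization (0.0459) and with the dimmest probe sets dropped, 30% (0.0483) or 50% (0.047).
Pfkm, the muscle type, read 7.38, 7.04, 7.51 and 7.77 in transgenic livers, against 7.92, 7.67, 7.86 and 7.85 in controls. It was lower in replicates 1 to 3 than in any control, and the difference was -0.40 (SE 0.14, adjusted p = 0.0952), or -0.28 without transgenic replicate 2. It passed without transgenic replicate 4 (0.0353). Pfkl, the liver type that leukocytes also use, averaged 7.59 ± 0.19 in transgenic and 7.54 ± 0.03 in control livers (SD, n = 4 each), a log2 fold change of 0.05 that turned to -0.09 after quantile normalization and to -0.02 without transgenic replicate 2.

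The lower steps of glycolysis split and oxidise the sugar to pyruvate. Aldoa, the aldolase of muscle and most other cells, read 9.47, 10.18, 9.16 and 9.20 in transgenic livers against 8.98, 9.07, 8.96 and 8.87 in controls. The groups did not overlap, and the difference was 0.53 (SE 0.20, adjusted p = 0.106), or 0.31 without transgenic replicate 2. Pkm encodes the M forms of pyruvate kinase, which make pyruvate outside hepatocytes and red cells. Its brightest probe set (10528480) read 8.72, 9.87, 8.74 and 8.53 in transgenic livers, against 7.95, 8.28, 8.36 and 8.13 in controls.
There was no overlap, and replicate 2 lay more than 1 log2 unit above every other liver. The log2 fold change was 0.78 (SE 0.26, adjusted p = 0.0829) with all livers and 0.48 without replicate 2 (adjusted p = 0.0381). It also passed without transgenic replicate 4 and with array weights (0.0449). That probe set lists no RefSeq mRNA. The one that does (10585932) read 7.59, 8.46, 7.59 and 7.58 in transgenic livers, against 7.06, 7.0, 7.10 and 7.12 in controls, and passed with a difference of 0.73 (SE 0.19, adjusted p = 0.0487). With RefSeq probe sets chosen for every gene, an alternative chosen after the data were seen, 2 members rose, against 6.35% of all genes called, 4.68% higher.
Pklr, the pyruvate kinase of liver and red cells, averaged 10.61 ± 0.29 in transgenic and 10.81 ± 0.27 in control livers (SD, n = 4 each; log2 fold change -0.20, adjusted p = 0.4), and stood at -0.06 without transgenic replicate 2 and -0.09 without control replicate 3. Pgk1, the phosphoglycerate kinase of all body cells, stood at -0.13 (adjusted p = 0.3). Its probe sets 10399379 and 10498313 gave identical values in every liver and 10601390 nearly the same, so the 3 are not taken as separate readings.

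The fate of pyruvate showed the one fall among the members. Pdk1 encodes a kinase that switches off pyruvate dehydrogenase and so keeps pyruvate out of the mitochondrial cycle. It read 6.69, 6.40, 7.47 and 7.50 in transgenic replicates 1 to 4, against 7.92, 8.04, 8.16 and 7.75 in the controls. Every transgenic liver was lower than every control, replicates 1 and 2 the most. The level was 1.94-fold lower, or -0.95 on the log2 scale (SE 0.24, 95% confidence interval -1.49 to -0.42, adjusted p = 0.0482), and -0.75 without transgenic replicate 2 (adjusted p = 0.0494). The call lies close to the threshold and was lost in 10 of 19 alternative settings, among them without transgenic replicate 1 (0.135) and without control replicates 1, 2, 3 or 4 (0.0975, 0.122, 0.123 and 0.0789).
Lactate dehydrogenase turns pyruvate into lactate and back. Ldha, the form of muscle and liver, averaged 11.96 ± 0.09 in transgenic and 11.95 ± 0.10 in control livers (SD, n = 4 each). Its log2 fold change of 0.0038 had a confidence interval of -0.19 to 0.20 and turned to -0.04 after quantile normalization. Ldhb, the form of heart and of some leukocytes, stood at 0.14 (adjusted p = 0.367) on one probe set and at -0.05 on its other, and the first gave 0.04 without transgenic replicate 4.

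**Figure D3:**
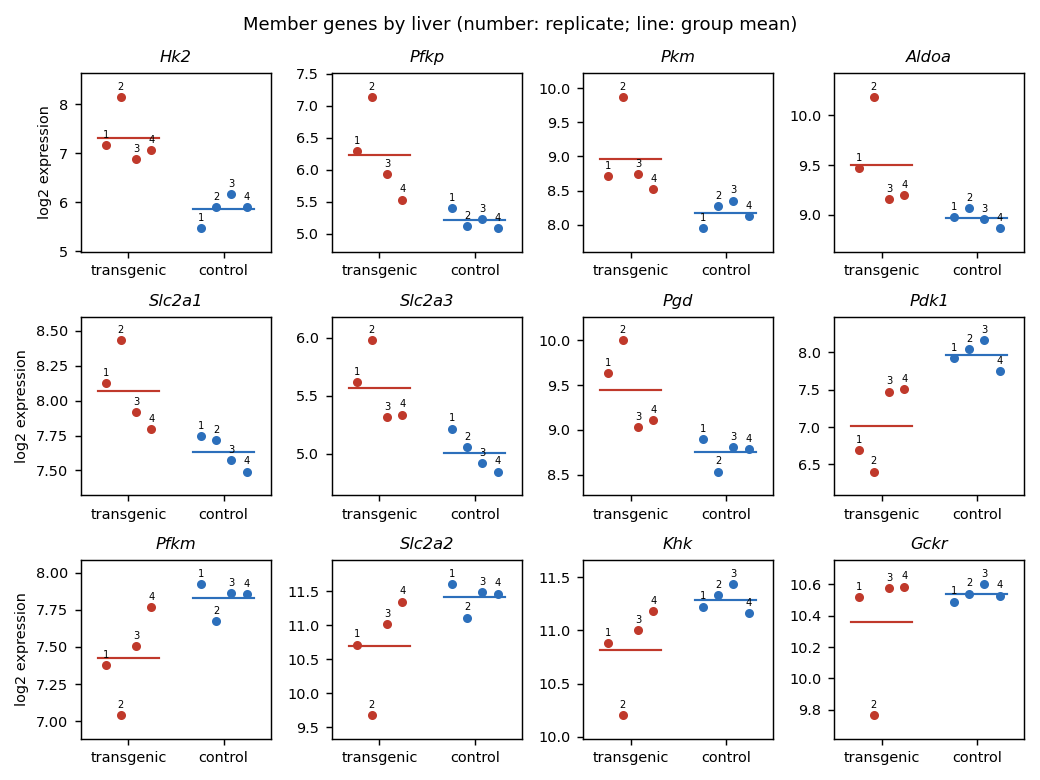
Log2 expression of 12 members in each liver, transgenic left and control right, with the replicate number beside each point and a line at the group mean; the vertical scales differ. Hk2, Pfkp, Pkm, Aldoa, Slc2a1, Slc2a3 and Pgd are higher in every transgenic liver and Pdk1 is lower in every one, while the difference in Gckr rests on transgenic replicate 2.

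Isoforms of the same reaction were then set against each other within each liver, as the difference of the 2 log2 values, which gives the difference of their fold changes and no comparison of levels. In all, 6 pairs were compared. With 4 livers against 4, an exact two-sided permutation test cannot go below p = 0.0286, and the p-values were adjusted over the 6 pairs. With the control mean of each pair set to 0, Pkm minus Pklr read 0.49, 2.30, 0.63 and 0.51 in transgenic replicates 1 to 4, against -0.31, 0.23, -0.15 and 0.24 in controls.
The groups did not overlap, and the mean difference was 0.98 (exact p = 0.0286, adjusted p = 0.0571), or 0.54 without transgenic replicate 2. Pfkp minus Pfkl read 1.24, 1.64, 0.61 and 0.36 in transgenic livers, against 0.22, -0.12, -0.01 and -0.10 in controls, with a mean difference of 0.96 (exact p = 0.0286, adjusted p = 0.0571). Slc2a3 minus Slc2a2 read 1.31, 2.71, 0.71 and 0.40 in transgenic livers, against 0.02, 0.35, -0.16 and -0.21 in controls, with a mean difference of 1.28 (exact p = 0.0286, adjusted p = 0.0571). These 3 of the 6 pairs had groups that did not overlap. The pairs Slc2a1 minus Slc2a2 (1.17) and Slc2a6 minus Slc2a2 (1.31) overlapped between the groups (exact p = 0.0571, adjusted p = 0.0571 for each). Pfkm minus Pfkl ran the other way, at -0.46 (exact p = 0.0571, adjusted p = 0.0571). None of the 6 passed the threshold after adjustment. The 3 pairs without overlap stood at the smallest possible exact p, which the adjustment took to 0.0571. They could not pass unless more than 3 pairs reached that p, so the test cannot decide on them. Without transgenic replicate 2 the differences were 0.81 (Slc2a3), 0.71 (Slc2a1) and 0.63 (Slc2a6) over Slc2a2, 0.74 (Pfkp) and -0.25 (Pfkm) over Pfkl. Without transgenic replicate 3 the exact test passed for 4 pairs (adjusted p = 0.0429; Pfkp, Pkm, Slc2a3 and Slc2a6), and without replicate 4 for 5 (adjusted p = 0.0343; Pfkm, Pfkp, Pkm, Slc2a1 and Slc2a3). In both cases the pairs that passed stood at the smallest possible exact p, again 0.0286. The pairs share genes, 3 of them Slc2a2 and 2 of them Pfkl, so they are not independent.

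**Figure D4:**
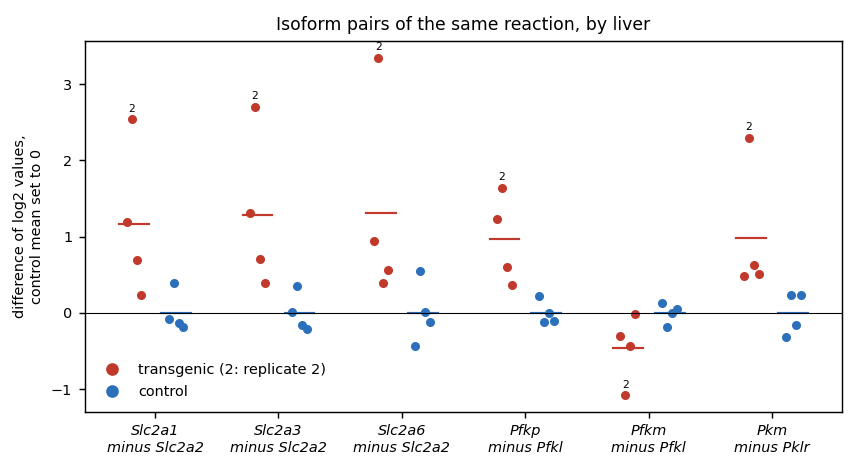
Difference of the log2 values of 2 isoforms of a reaction in each liver, with the control mean of each pair set to 0; transgenic livers stand left and control livers right, with lines at the group means. The transgenic points of Slc2a3 minus Slc2a2, Pfkp minus Pfkl and Pkm minus Pklr lie above all controls, with transgenic replicate 2 the highest, and those of Pfkm minus Pfkl average -0.46.

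The pentose phosphate pathway supplies NADPH for fat synthesis and for the phagocyte oxidase. Pgd, its second dehydrogenase, read 9.63, 9.996, 9.03 and 9.11 in transgenic livers, against 8.90, 8.54, 8.81 and 8.78 in controls. Every transgenic liver lay above every control. The log2 fold change of 0.69 (1.61-fold, SE 0.20) did not pass (adjusted p = 0.0643), nor did the 0.50 without transgenic replicate 2. It passed without transgenic replicate 3 (0.038) or 4 (0.0392).

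The 6 genes of glucose output gave 0 calls, also without transgenic replicate 2, beside 6.34% and 6.20% of all genes called. G6pc, the catalytic subunit of glucose-6-phosphatase, read 10.69, 10.91, 11.54 and 10.78 in transgenic livers, against 11.25, 11.53, 11.42 and 10.27 in controls. The ranges overlapped, and the log2 fold change was -0.14 with a confidence interval of -0.76 to 0.49. It was -0.42 without control replicate 4 and -0.00078 without control replicate 2. Slc37a4, the transporter that brings glucose 6-phosphate to that enzyme, read 10.83, 10.71, 11.17 and 11.17 in transgenic livers, against 11.24, 11.21, 11.35 and 11.21 in controls.
It was the only 1 of the 13 hepatocyte genes whose groups did not overlap, beside 11.2% of all genes on the lower side. Its difference was -0.28 (SE 0.12, limma adjusted p = 0.13). Pck1, the cytosolic carboxykinase that paces gluconeogenesis, averaged 12.48 ± 0.12 in transgenic and 12.34 ± 0.45 in control livers (SD, n = 4 each). Its log2 fold change was 0.13, and -0.09 without control replicate 4. Pck2, the mitochondrial form, had a log2 fold change of -0.00055, which was 0.08 with each array centred on its median. Fbp1, the fructose bisphosphatase of liver, stood at -0.22 (adjusted p = 0.22), and at -0.12 without transgenic replicate 2. Pcx, pyruvate carboxylase, stood at 0.06, with -0.07 without control replicate 2 and 0.16 without transgenic replicate 3.

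Glycogen is built by Gys2, the liver glycogen synthase, and broken down by Pygl, the liver phosphorylase. Gys2 read 10.61, 9.99, 10.66 and 10.65 in transgenic livers, against 10.98, 10.55, 10.77 and 10.78 in controls, a difference of -0.29 (adjusted p = 0.219). Pygl read 10.62, 10.32, 10.65 and 10.66 in transgenic livers, against 10.85, 10.60, 10.87 and 10.86 in controls, a difference of -0.23 (adjusted p = 0.161). For both, transgenic replicate 2 was the lowest of all 8 livers and control replicate 2 the lowest control, so the ranges overlapped. Without transgenic replicate 2 the differences were -0.13 for Gys2 and -0.15 for Pygl. Khk, the ketohexokinase that starts the breakdown of fructose in hepatocytes, read 10.88, 10.20, 11.00 and 11.18 in transgenic livers, against 11.22, 11.33, 11.44 and 11.16 in controls. Its log2 fold change was -0.47 (SE 0.19, adjusted p = 0.118), and -0.27 without transgenic replicate 2.

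Insulin signalling runs from the receptor Insr through the adaptors Irs1 and Irs2 to the transcription factor Foxo1, which insulin keeps out of the nucleus. None of the 4 genes passed limma's test. At an unadjusted p under 0.05, 1 (Irs1) was lower, against 18.3% of all genes. Irs1 read 6.16, 6.07, 6.11 and 6.34 in transgenic livers, against 6.34, 6.48, 6.64 and 6.34 in controls. The log2 fold change was -0.28 (SE 0.10, adjusted p = 0.0951). Its second probe set stood at -0.27, but is dim (means of 2.97 in transgenic and 3.24 in control livers) and lists no RefSeq mRNA. Irs2 stood at -0.14 (adjusted p = 0.468), Insr at 0.18 (adjusted p = 0.404) and Foxo1 at -0.07 (adjusted p = 0.499), the last of which turned to 0.01 with each array centred on its median. Single arrays moved these values: Insr stood at 0.02 without control replicate 2, and Irs2 at -0.04 without transgenic replicate 1 and at -0.04 without control replicate 3.

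Other genes of the same pathways were read from lists written by function. Of 75 measured, 3 rose and 5 fell, against the 4.67% and 1.67% of all genes, and the median log2 fold change was -0.04. In the list of other glycolysis and gluconeogenesis genes, 1 of 11 rose and 1 fell. Pfkfb3, the inducible enzyme that makes the glycolysis activator fructose 2,6-bisphosphate in many activated cells, read 8.04, 9.35, 7.03 and 7.94 in transgenic livers, against 5.65, 5.62, 5.25 and 5.41 in controls. Every transgenic liver lay far above every control, and the log2 fold change of 2.61 (SE 0.39, adjusted p = 0.00941) was above that of every member. It passed in all 19 alternative settings, at 2.19 without transgenic replicate 2. Eno2, the enolase of neurons, averaged 4.43 in transgenic and 4.98 in control livers and fell by 0.55 (adjusted p = 0.0342). Its call was lost in 8 of the 18 alternative settings that kept it. These were all deposited probe sets (0.0584), the replicate block (0.0569) and treat (0.359). The others were the fits without transgenic replicate 1 (0.11) and without control replicates 1 to 4 (0.0629, 0.095, 0.0933 and 0.0712). Eno2 stood at -0.49 without transgenic replicate 2 (limma adjusted p = 0.0419).

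Among 17 other glycogen genes 1 rose and 2 fell. Pygb, the brain form of glycogen phosphorylase that many other cells use, read 9.08, 8.54, 8.10 and 7.67 in transgenic livers, against 6.74, 6.68, 7.21 and 6.67 in controls. Here replicate 1 and not replicate 2 was the highest, and the log2 fold change was 1.52 (SE 0.27, adjusted p = 0.0171). The call was lost without control replicates 1, 2 or 4 (0.0567, 0.0682 and 0.059). The 2 that fell are glycogen-targeting subunits of protein phosphatase 1, which turn on glycogen synthase.
Ppp1r3b, the main hepatic subunit, averaged 7.40 in transgenic and 8.13 in control livers and fell by 0.73 (adjusted p = 0.0389). Ppp1r3c averaged 7.14 in transgenic and 7.91 in control livers and fell by 0.77 (adjusted p = 0.0384). Each lost its call in 9 of 19 alternative settings, among them without transgenic replicate 1 (0.113 for Ppp1r3b and 0.115 for Ppp1r3c) and without any 1 control (0.0694 to 0.109 and 0.0546 to 0.109).

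Of 13 other genes of pyruvate and lactate use, 1 rose. Pdp1, the phosphatase that switches pyruvate dehydrogenase on and so opposes the kinase Pdk1, rose by 0.50 (SE 0.12, adjusted p = 0.0463). It lost the call in 12 of 19 settings, among them without transgenic replicates 1, 2 or 3 (0.116, 0.0557 and 0.0562) and without any 1 control (0.0728 to 0.118). Other kinases and phosphatases of this step, named after their values were seen, went in both directions without passing. The kinases Pdk3, Pdk4 and Pdk2 stood at 1.15 (limma adjusted p = 0.0712), 0.34 and -0.65, and the phosphatase Pdp2 at -0.33. Of 18 other genes of insulin and glucagon signalling, 1 fell. Gcgr, the glucagon receptor, read 8.83, 8.24, 8.66 and 8.89 in transgenic livers, against 9.50, 9.18, 9.11 and 9.37 in controls, and fell by 0.63 (SE 0.15, adjusted p = 0.0424). It lost the call in 9 of 19 settings, among them without transgenic replicates 1 or 3 (0.0939 and 0.0505) and without any 1 control (0.0834 to 0.0991). Gcgr stood at -0.50 without transgenic replicate 2 (limma adjusted p = 0.0349).
Of 3 genes of fructose and galactose use, 1 fell. Galt, the uridylyltransferase that brings galactose into glycolysis, fell by 0.55 (adjusted p = 0.0271), and lost the call in 6 of 19 settings. These were treat (0.299), the fit without transgenic replicate 1 (0.0772) and the fits without any 1 control (0.0672 to 0.0817). Galt stood at -0.47 without transgenic replicate 2 (limma adjusted p = 0.0239). None of 6 other pentose phosphate genes passed, and the smallest p belonged to the lactonase Pgls, at -0.36 (adjusted p = 0.0686). None of 7 glucose-responsive and glycolytic transcription factors passed, and the smallest p belonged to Myc, at 1.05 (adjusted p = 0.117).

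**Figure D5:**
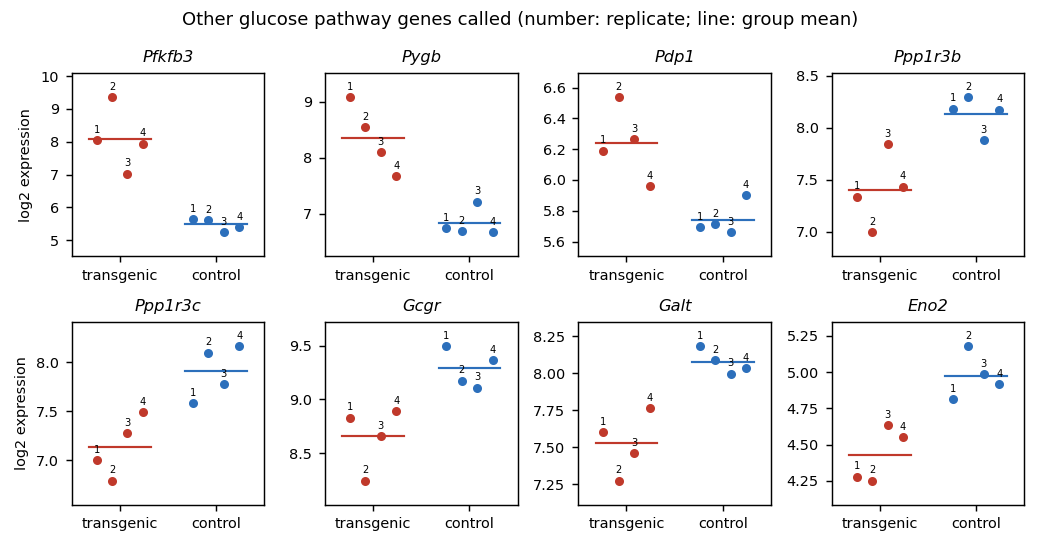
Log2 expression of the 8 called genes of the other pathway lists in each liver, transgenic left and control right, with the replicate number beside each point and a line at the group mean; the vertical scales differ. The 3 that rose (Pfkfb3, Pygb and Pdp1) and the 5 that fell do not overlap between the groups. In every gene shown except Pygb, transgenic replicate 2 is the transgenic liver farthest from the controls.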

How the data were processed

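The authors deposited log2 expression values for 35556 probe sets on 8 arrays. The submitters' processing notes name Affymetrix Expression Console, with version, settings and normalization not given in the sources used here. Base 2 was read from the values, whose maximum is 14.1. Array medians lay between 4.88 and 5.08, and no further normalization was applied. The platform annotation tied 21789 probe sets to 1 gene, 1621 to several and 12146 to none. Limma 3.58.1 in R 4.3.3 compared the groups over the 21789, two-sided, with Benjamini-Hochberg adjustment over all of them, and a gene was called at an adjusted p under 0.05. Each gene was then read through its brightest probe set. SE and 95% intervals are limma's. The steps were tested on simulated data. Python 3.11.15 searched the promoters (RefSeq, GRCm38.p6). The p-values of the isoform pairs were adjusted over the 6 pairs compared; other planned pairs are not reported here.

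The members, lists, pairs and tests were chosen with earlier results of these data known. Named were Ikbkb, all members, the called genes of each pathway list (or the gene with the smallest p), and of each marker list the brightest and the most changed called gene. Alternatives were quantile normalization, median centring, dropping the dimmest 30% or 50%, fitting all deposited probe sets, averaging the probe sets of a gene, trended and robust moderation, array weights, a block for replicate number, a test against 1.2-fold (treat), and omission of single arrays. A probe set listing a RefSeq mRNA was added after the data were seen. Scanner files were not used here, which leaves background signal unknown.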

Additional observations from a re-analysis of the deposited data

Results flagged for a closer look

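Among 70 groups of 4 livers (35 genes in each group of mice), 6 held a liver whose gap to its nearest neighbour took up more of the group's range than Dixon's 95% critical value allows. Chance alone gives about 1 in 20 groups. In 4 of the 6 the liver was transgenic replicate 2. It read 9.99 for Gys2, against 10.61 to 10.66 in the other transgenic livers. It read 10.32 for Pygl, against 10.62 to 10.66, and 9.77 for Gckr, against 10.52 to 10.58. For Pkm it read 9.87, against 8.53 to 8.74. In the control group, replicate 4 read 11.67 for Pck1, against 12.51 to 12.64 in the other controls, and replicate 2 read 10.60 for Pygl, against 10.85 to 10.87.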

How the results depend on the processing

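Over 19 alternatives (18 planned, 1 chosen after seeing the data), the hepatocyte and insulin members gave 0 calls in every one. Of 853 values of single genes, 743 kept direction and side of the threshold, 76 lost the call, 16 gained it and 18 turned sign; the causes were not tested. Genes called numbered 932 higher and 333 lower. With median centring they were 618 and 97, with all deposited probe sets 425 and 54, with treat 271 and 8, and without single arrays 192 to 1636 and 3 to 944. Genes lower were 638 after quantile normalization, 501 with array weights and 174 with the replicate block. The higher share of calls was 73.7%, against 62.6% after quantile normalization and 86.4% after centring. Leukocyte members called higher (1) were 3 after quantile normalization and 2 without the dimmest 30% or 50%, with array weights or with RefSeq probe sets, and 0 to 5 without single arrays. Those lower (1) were 0 with centring, all deposited probe sets, array weights, the replicate block or treat, and 0 to 2 without single arrays. Pentose phosphate members called higher (0) were 0 to 1 without single arrays. Other pathway genes higher (3) were 5 and 6 without the dimmest 30% and 50%, and 1 to 7 without single arrays. Those lower (5) were 8 after quantile normalization, 2 with centring, 1 with all deposited probe sets, 3 with the replicate block, 0 with treat, and 0 to 7 without single arrays. Without single arrays the pairs spanned -0.60 to -0.25 (Pfkm minus Pfkl), 0.74 to 1.16 (Pfkp minus Pfkl), 0.54 to 1.15 (Pkm minus Pklr), 0.71 to 1.48, 0.81 to 1.58 and 0.63 to 1.62 (Slc2a1, Slc2a3 and Slc2a6 minus Slc2a2), with exact permutation p adjusted between 0.0343 and 0.171; all passing values came without transgenic replicate 3 or 4. Signs turned for Foxo1 (0.0081) and Pck2 (0.079) with centring, for Ldha (-0.043) and Pfkl (-0.093) after quantile normalization, and for G6pc (0.041), Ldha (-0.037), Pck2 (0.118) and Pcx (-0.053) with array weights. Without single arrays the range crossed 0 for Gckr (-0.254 to 0.018), Ldha (-0.041 to 0.037), Pck1 (-0.090 to 0.233), Pck2 (-0.113 to 0.081), Pcx (-0.071 to 0.159) and Pfkl (-0.025 to 0.122). Livers of the same replicate number correlated in their deviations from the group means at 0.28, -0.03, 0.27 and -0.13 (replicates 1 to 4). Transgenic replicates 1 and 3 matched their own number best and 2 and 4 did not, so the livers were not treated as pairs. With the replicate block Pdk1 was at adjusted p = 0.0604, and the pairs kept their values, with a smallest possible exact p of 0.125. Signal over background was unknown, so dim genes such as Eno2 and Slc2a3 have no detection limit here.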

Other observations

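Control replicate 4 was the lowest of all 8 livers for the gluconeogenic genes G6pc (10.27), Pck1 (11.67) and Pck2 (6.07). The other controls read 11.25 to 11.53, 12.51 to 12.64 and 6.33 to 6.65 for them.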
